A study of Mus musculus with 12 samples.

Results

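Epithelium labelled tumor was set against epithelium labelled tumor adjacent in PPARB flox/flox mice, with 3 arrays of each tissue out of the 12 arrays in the series. The 6 arrays were chosen by their genotype characteristic and tissue label, and the other 6 carry the FSPCre-PPARB -/- genotype, called KO here, in which a Cre used to delete genes in fibroblasts acts on PPARB. All animals were males of the C57BL6/J strain on an APCmin/+ background, killed at 25 weeks or earlier after weight loss. The flox/flox mice were littermates of the KO mice and are called floxed here, and no Cre is named for them in the labels. Both tissues were cut by laser from stained sections of intestinal tumors, and the labels do not name the stretch of intestine. No label ties an array to an animal, so p-values measure only the spread between these arrays, which may be technical. One adjacent array, floxed adjacent 3, is floxed by genotype characteristic and description but KO by title and source name, so list medians and the genes that passed the blocked fit are also given without it. The array KO adjacent 1 has the opposite conflict, KO by genotype characteristic and description and floxed by title and source name.

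APCmin/+ mice carry an inactivating mutation in 1 copy of Apc, part of the complex that marks beta-catenin for breakdown. Intestinal adenomas form where the remaining copy is lost, and beta-catenin then keeps Wnt target genes on, among them the feedback inhibitors Axin2, Nkd1 and Notum and the crypt genes Lgr5, Ascl2 and Sox9. Normal crypt cells shut these genes off as they move onto the villus and mature into absorptive enterocytes, which carry digestive enzymes and transporters on a brush border. Ppard, the floxed gene, encodes the nuclear receptor PPAR-beta/delta.

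Absorptive enterocyte, interferon response and gastric mucous genes carry most of the results below, so 4 promoters of these groups are shown, each from 250 bases before the start of the gene to the base before it. They come from RefSeq on GRCm38.p6 and run 5′ to 3′ on the gene's strand. Sis (sucrase-isomaltase, which splits sucrose) lies at chr3:72967864-72968113 on the minus strand, and capitals mark TTTATG, letters bound by the intestinal factor CDX2, starting 43 bases before the gene. Alpi (intestinal alkaline phosphatase) lies at chr1:87101607-87101856 on the minus strand, and capitals mark CAAAGTC, a half-site of HNF4, starting 19 bases before the gene. Ifit3 (an interferon-induced antiviral protein) lies at chr19:34583279-34583528 on the plus strand, and capitals mark 2 copies of the interferon-stimulated response element (TTTC, any 2 bases, TTTC), starting 156 and 122 bases before the gene. Gkn2 (gastrokine 2 of stomach surface cells) lies at chr6:87373115-87373364 on the plus strand, and capitals mark AGATAA, letters bound by GATA factors, starting 218 bases before the gene.
Sis: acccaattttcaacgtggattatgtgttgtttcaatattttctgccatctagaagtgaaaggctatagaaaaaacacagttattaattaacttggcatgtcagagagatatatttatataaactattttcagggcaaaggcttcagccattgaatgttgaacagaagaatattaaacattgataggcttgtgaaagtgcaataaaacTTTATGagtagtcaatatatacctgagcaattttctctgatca
Alpi: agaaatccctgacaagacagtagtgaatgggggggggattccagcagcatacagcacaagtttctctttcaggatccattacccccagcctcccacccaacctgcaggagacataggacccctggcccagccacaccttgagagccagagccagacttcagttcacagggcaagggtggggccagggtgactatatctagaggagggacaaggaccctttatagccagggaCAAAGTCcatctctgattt
Ifit3: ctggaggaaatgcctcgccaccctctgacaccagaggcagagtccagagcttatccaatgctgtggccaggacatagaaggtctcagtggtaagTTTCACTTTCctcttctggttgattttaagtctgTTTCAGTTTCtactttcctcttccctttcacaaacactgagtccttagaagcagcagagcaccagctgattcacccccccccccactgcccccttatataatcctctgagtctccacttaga
Gkn2: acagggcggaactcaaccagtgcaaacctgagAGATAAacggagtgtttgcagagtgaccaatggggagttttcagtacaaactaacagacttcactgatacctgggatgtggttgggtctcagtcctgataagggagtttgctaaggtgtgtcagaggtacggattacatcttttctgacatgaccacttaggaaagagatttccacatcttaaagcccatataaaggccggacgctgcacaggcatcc

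Both strands were searched, and no motif's letters contain another's. The response element occurred in 10 of 19 interferon response genes with a promoter in the table, against 3.463% of all 27025 genes. CAAAGTC occurred in 5 of 33 enterocyte genes against 4.329% of all genes, TTTATG in 4 of 33 against 12.422%, and AGATAA in 3 of 12 gastric genes against 11.434%. The 4 genes and the motifs were picked after the values were seen, and a match describes letters in this window only.

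The 6 arrays differed widely in signal. Receptors of smell and of the vomeronasal organ, which gut epithelium is not known to use as a class, served as a yardstick for background. In floxed tumor 3 and floxed adjacent 3, 11090 and 10750 of 18744 other genes lay above the 95th percentile of these 1194 receptors, as did 10477 to 11551 in the KO arrays. In floxed tumor 1 and 2 only 3706 and 1993 did, and in floxed adjacent 1 and 2 only 3111 and 2826. Floxed tumor 3 and floxed adjacent 3 correlated at r = 0.90 over genes and are called the full-signal pair. This pair may cross genotypes, because floxed adjacent 3 is titled KO, and its values cannot be repeated without that array. The other 4 floxed arrays, called the weak arrays, correlated with each other at 0.55 to 0.60. The main gene lists are therefore described over all 6 arrays, in the full-signal pair (1 array against 1, with no test) and in the weak arrays (2 against 2), and a difference given with no view named is over all 6. A repeat without only 1 array of the pair leaves full signal in 1 tissue alone. Such a repeat mixes signal with tissue.

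**Figure D1:**
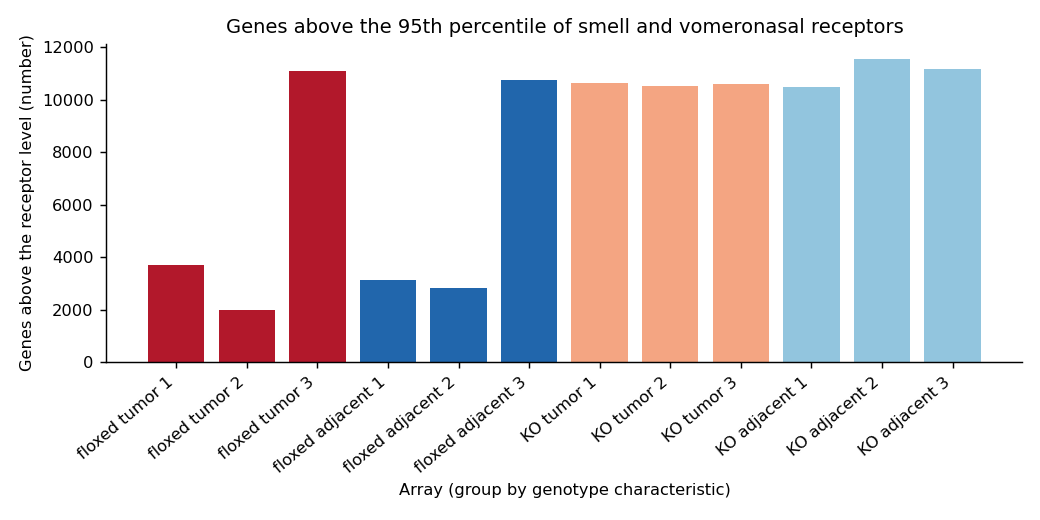
Number of genes above the 95th percentile of smell and vomeronasal receptors (y axis) in each of the 12 arrays (x axis), 1 bar per array, coloured by group. Floxed tumor 3 (11090) and floxed adjacent 3 (10750) stand with the KO arrays, and the other 4 floxed arrays lie between 1993 and 3706.

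Epithelial identity was visible in the full-signal pair and faint in the weak arrays. Epcam, an epithelial adhesion protein, was at 5.79, 4.83 and 6.93 (log2) in tumor 1 to 3 and at 4.60, 5.04 and 5.73 in adjacent 1 to 3. Krt8, a keratin of simple epithelia, was at 6.68, 4.15 and 9.84 in tumor and at 3.81, 5.47 and 9.97 in adjacent arrays. Cdh1, E-cadherin, reached 7.83 and 8.00 in the full-signal pair and 4.88 to 5.66 elsewhere. Vil1, the brush border protein villin, was at 6.35, 5.64 and 8.96 in tumor and at 5.73, 4.31 and 6.86 in adjacent arrays. The intestinal transcription factor Cdx2 stayed between 4.53 and 5.56 in all 6. Markers of other cells were read in the same way. In the full-signal pair the fibroblast collagens Col1a1 and Col3a1 differed by −0.13 and 0.01, the endothelial Pecam1 by −0.35, and the leukocyte gene Ptprc by 0.72. Over whole lists the medians of that pair were −0.13 for 35 fibroblast and matrix genes (0 higher and 6 lower by at least 1 log2 unit, against 4.3% and 2.89% of all genes), 0.08 for 17 endothelial, −0.16 for 15 smooth muscle, −0.23 for 19 macrophage and dendritic, 0.11 for 24 neutrophil and mast cell and −0.13 for 11 nervous system genes. The part of these cells in the differences was not tested.

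No gene separated the tissues at an adjusted p under 0.05 in the 6 arrays (limma, 0 of 19938 genes, 0%), and the smallest adjusted p was 1. At an unadjusted p under 0.05 there were 290 genes, 167 higher (0.838%) and 123 lower (0.617%) in tumor. Tumor arrays all lay above adjacent arrays in 498 genes (2.5%) and all below in 627 (3.14%). With the replicate number of the description as a block, 3 genes passed (0.015%), each higher in tumor in 3 of 3 same-numbered pairs. After a further scaling of the arrays, by quantiles or to 1 SD, the blocked fit called 0. Without floxed adjacent 3 the fit without a block again called 0 genes. The median SE of a gene's difference was 0.43 log2 units.

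The 3 genes of the blocked fit are an enterocyte gene, an antigen presentation gene and a gene of mature epithelium. Fabp2, the intestinal fatty acid-binding protein (chromosome 3), was at 9.16, 6.47 and 9.60 in tumor 1 to 3 and at 5.51, 3.37 and 7.44 in adjacent 1 to 3, so the groups overlapped while each tumor array lay above its namesake. Its difference was 2.97 ± 0.36 (log2, SE, n = 3 same-numbered pairs, limma adjusted p = 0.0400 with the block). B2m, the light chain of MHC class I (chromosome 2), was at 8.72, 7.58 and 9.85 against 6.59, 4.80 and 7.27, with no overlap, and differed by 2.49 ± 0.33 (limma adjusted p = 0.0422 with the block). Plac8 is a small cysteine-rich protein made in differentiated gut epithelium and in leukocytes (chromosome 5). It was at 7.67, 6.39 and 9.87 against 4.72, 4.20 and 7.65, and differed by 2.45 ± 0.33 (limma adjusted p = 0.0422 with the block). None of the 3 passed with array signal as the block instead (limma adjusted p = 0.754 for Fabp2, 0.526 for B2m and 0.396 for Plac8). Without floxed adjacent 3 the same differences, then without the block and with only weak adjacent arrays left, were 3.97, 3.02 and 3.51.

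Absorptive enterocyte genes were higher in the arrays labelled tumor, with the largest median of the 40 lists over all 6 arrays, in the full-signal pair and in the weak arrays. Their mean level was 6.46, 5.33 and 7.69 in tumor 1 to 3 and 5.37, 4.66 and 5.74 in adjacent 1 to 3, so each tumor array lay above its namesake while tumor 2 lay below adjacent 1 and 3. Of 36 measured genes, 33 had a difference above 0, with a median of 1.34 against 0.00 over all genes. At an unadjusted p under 0.05, 12 were higher and 0 lower, against 0.838% and 0.617% of all genes, but 0 passed the adjusted test without the block and 1, Fabp2, with it. In the full-signal pair 34 were above 0 with a median of 2.21, and 28 were higher by at least 1 log2 unit, against 4.3% of all genes. Under the other scalings the pair's median was 1.575 to 1.593. In the weak arrays 32 were above 0 with a median of 0.91, and both tumor arrays lay above both adjacent arrays in 15 and below them in 2, where all genes gave 17% and 15.8%. Without floxed adjacent 3, 34 were above 0 with a median of 1.44, and without floxed tumor 3, 32 with a median of 0.73. In such tissue samples fewer cells of a type and less RNA per cell cannot be told apart.

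Among the transporters, Slc6a19, the neutral amino acid carrier of the brush border, was at 5.73, 5.29 and 6.50 in tumor and at 4.51, 4.25 and 4.26 in adjacent arrays. The groups did not overlap, and the difference was 1.50 ± 0.41 (SE, n = 3 and 3; limma adjusted p = 1). Slc26a3, a chloride and bicarbonate exchanger, was at 4.46, 5.19 and 6.47 against 4.28, 4.28 and 3.53, also without overlap. Only its value in tumor 3 lay above the receptor 95th percentile of the array, so the other arrays differ within background. Outside the list, Slc28a2, a purine nucleoside carrier, was at 5.27, 5.77 and 6.72 against 5.22, 3.46 and 3.85, and Slc23a4, a relative of the vitamin C carriers, at 5.87, 5.04 and 6.09 against 4.13, 4.21 and 4.44. The glucose carrier Slc5a1, named after its values were seen, had the largest gap of the list in the full-signal pair, 9.35 against 5.25, while the weak arrays overlapped at 7.30 and 5.49 against 5.75 and 5.05.

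Among the other members, Mme, the membrane peptidase neprilysin, was at 6.69, 5.22 and 7.29 in tumor and at 4.95, 4.20 and 4.61 in adjacent arrays, a difference of 1.81 ± 0.53 with no overlap. Apoc3, an apolipoprotein of chylomicrons, was at 6.71, 5.95 and 8.02 against 5.25, 5.31 and 5.48, a difference of 1.54 ± 0.51 with no overlap. Mttp, which loads lipid onto apolipoprotein B, was at 6.65, 5.23 and 9.72 against 5.09, 4.57 and 6.88, so that tumor 2 lay below adjacent 3. Sis, whose promoter is printed above, was at 7.45, 4.30 and 8.60 against 5.31, 3.82 and 5.44, and Alpi at 9.17, 5.30 and 10.70 against 6.87, 4.96 and 8.31. For both, tumor 1 and 3 were high and tumor 2 lay among the adjacent arrays. A few members gave differences near 0, among them Xpnpep2, an aminopeptidase, at −0.06, and Slc9a3, the sodium and proton exchanger, at −0.11 over 6 arrays but 1.52 in the full-signal pair.

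**Figure D2:**
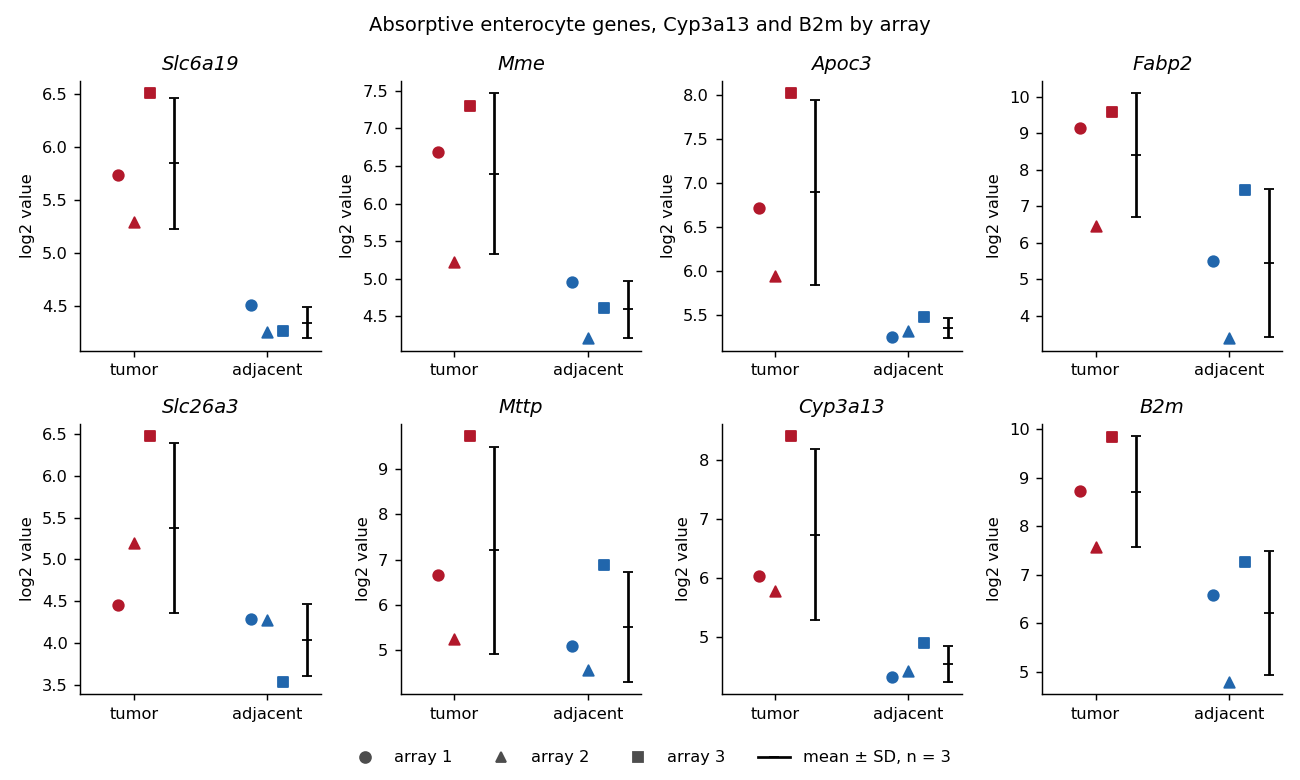
Log2 values (y axes) of 6 absorptive enterocyte genes, Cyp3a13 and B2m in the floxed tumor and floxed adjacent arrays; symbols give the array number and the bars mean ± SD, n = 3. Slc6a19, Mme, Apoc3, Slc26a3, Cyp3a13 and B2m do not overlap between tissues, and tumor 3 (squares) is the highest array for each of the 8 genes.

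Brush border genes had a larger median in the full-signal pair than in the weak arrays. Of 17 brush border genes, 14 were above 0 with a median of 0.48 over 6 arrays, and 10 were higher by at least 1 log2 unit in the pair, against 4.3% of all genes. The median in the pair was 1.28, and 0.72 to 0.91 under the other scalings. In the weak arrays 12 were above 0 with a median of 0.29, and without floxed adjacent 3 the median over the rest was 0.79. Cdhr2, a cadherin that links microvilli, was at 6.10, 4.40 and 8.13 in tumor and at 4.22, 3.60 and 5.02 in adjacent arrays. Cyp3a13, a cytochrome P450 of drug oxidation, was at 6.02, 5.77 and 8.40 against 4.31, 4.42 and 4.88. Its groups did not overlap, and the difference was 2.19 ± 0.64 (SE; limma adjusted p = 1). The 39 detoxification genes as a group were divided: 13 were higher and 5 lower by at least 1 log2 unit in the full-signal pair, against 4.3% and 2.89% of all genes, the lower ones including the esterase Ces2g (5.13 against 7.17) and the quinone reductase Nqo1 (4.12 against 7.67), both named after their values were seen. Their median was 0.16 over 6 arrays, 0.50 without floxed adjacent 3 and −0.003 without floxed tumor 3. Fatty acid oxidation genes and PPAR targets had a median of 0.19 with 24 of 32 above 0, which was 0.43 without floxed adjacent 3 and −0.15 without floxed tumor 3. Ppard itself was at 4.95, 4.48 and 5.79 against 5.09, 4.61 and 5.76, a difference of −0.08 ± 0.46.

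Of 17 goblet cell genes, 6 were higher and 6 lower by at least 1 log2 unit in the full-signal pair, against 4.3% and 2.89% of all genes. The membrane mucin Muc13, which enterocytes also make, was at 8.59, 7.21 and 9.22 in tumor and at 7.0, 6.17 and 6.84 in adjacent arrays without overlap, a difference of 1.67 ± 0.53. Muc3, a brush border mucin, was at 9.07, 8.60 and 11.16 against 8.68, 5.0 and 8.67, and Guca2a, guanylin, at 5.58, 5.36 and 6.65 against 4.78, 4.98 and 5.18. The goblet genes named here were among the 8 of 17 above 0 over 6 arrays, and 9 were below 0. The goblet list median was −0.20 over 6 arrays, and it was above 0 without floxed adjacent 3 (0.47), without floxed tumor 1 (0.016) and without floxed tumor 2 (0.050). Among 15 Paneth and antimicrobial genes the median was −0.03 over 6 arrays, 0.33 in the full-signal pair and −0.04 in the weak arrays. The lectins Reg3b (8.02, 9.67 and 12.30 against 6.31, 7.0 and 10.56) and Reg3g (5.78, 5.80 and 9.31 against 5.71, 4.67 and 6.93) were higher in each tumor array than in its namesake. Medians were 0.14 for 19 enteroendocrine and 0.10 for 12 tuft cell genes, and −0.09 and −0.06 in the pair. Avil, an actin-binding protein of tuft cells, was lower in all tumor arrays at 4.81, 5.18 and 5.17 against 5.40, 5.66 and 7.35. In tumor 1 and 2 Avil lay below the receptor 95th percentile. Of the 12 tuft cell genes, 9 were above 0 over 6 arrays and 5 in the pair.

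Wnt targets that mark adenomas had a median below 0 in the arrays labelled tumor. Of 19 measured genes of the Wnt feedback and adenoma core, 8 had a difference above 0 and 11 below, with a median of −0.15 over 6 arrays, −0.36 in the full-signal pair and −0.03 in the weak arrays. No member passed the test, none reached an unadjusted p under 0.05, and in the full-signal pair 0 were higher and 4 lower by at least 1 log2 unit, against 4.3% and 2.89% of all genes. The median was −0.12 without floxed adjacent 3 and −0.29 without floxed tumor 3. Signal limits these values: above the receptor 95th percentile lay 12 and 14 of the 19 genes in tumor 3 and adjacent 3, 5 and 0 in tumor 1 and 2, and 2 and 3 in adjacent 1 and 2. Apc was at 5.28, 5.23 and 6.16 against 5.02, 5.50 and 5.76, a difference of 0.13 ± 0.41. Together with the enterocyte values, these levels run against the textbook contrast of adenoma with normal mucosa, so the tissues are called only by their labels.

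Of the feedback inhibitors of the pathway, Axin2, a scaffold of the destruction complex, was at 5.22, 4.01 and 5.15 in tumor and at 4.43, 3.96 and 5.21 in adjacent arrays. Nkd1, which restrains Dishevelled, was at 3.80, 4.95 and 3.92 against 4.93, 4.80 and 5.24, a difference of −0.77 ± 0.41 with overlap, and −1.32 in the full-signal pair. Notum, a secreted enzyme that inactivates Wnt, was at 5.08, 5.09 and 4.42 against 3.92, 4.63 and 4.88, higher in the weak tumor arrays (difference 0.81) and lower in tumor 3 (−0.46). The ubiquitin ligases Rnf43 and Znrf3, which remove Wnt receptors, differed by 0.63 ± 0.71 and −0.26 ± 0.41, and the secreted Wnt binder Wif1 by 0.07 ± 0.46. Wif1 and Znrf3 lay below the receptor level in all 6 arrays.

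Ascl2, a transcription factor of crypt base stem cells, was at 4.13, 4.01 and 3.82 in tumor and at 4.16, 4.73 and 4.59 in adjacent arrays, the only core gene without overlap (1 of 19, against 2.5% of all genes higher and 3.14% lower). It lay above the receptor level in 1 of 6 arrays, so the difference of −0.50 ± 0.35 is between values mostly at background. Lgr5, the R-spondin receptor of stem cells, was at 4.17, 4.77 and 3.87 against 4.18, 4.60 and 3.85, below the receptor level in all 6 arrays. Myc, a driver of growth, was at 4.01, 3.74 and 5.77 against 5.60, 4.89 and 7.08, lower in each tumor array than in its namesake, a difference of −1.34 ± 0.67. Prom1, a membrane protein of progenitors, differed by −0.82 ± 0.50, the cell surface glycoproteins Cd44 and Cd24a by −0.15 ± 0.46 and −0.43 ± 1.06, and Ccnd1, cyclin D1, by 0.14 ± 0.54. Sox9 and Prox1, transcription factors of crypt and adenoma cells, differed by −0.25 ± 0.48 and 0.05 ± 0.54 (Prox1 below the receptor level in all 6 arrays), and Ephb3, which sorts cells along the crypt axis, by −0.09 ± 0.47. Cldn2, a crypt claudin, Mmp7, a matrix protease, and Lrg1, a secreted glycoprotein, completed the list at 0.01 ± 0.56, −0.56 ± 0.50 and −0.56 ± 0.74. Of 21 further Wnt targets the median was −0.07, with Sp5, a Wnt-induced repressor, higher in all tumor arrays (5.52, 5.25 and 5.17 against 5.04, 4.44 and 4.69) and Bambi, a pseudoreceptor for TGF-beta, lower in all (4.74, 4.45 and 4.24 against 4.78, 5.83 and 5.32).

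Stem cell, proliferation and regenerative lists lay near or below 0. Medians over 6 arrays were 0.05 for 20 stem cell markers, −0.05 for 35 cell cycle and −0.09 for 35 DNA replication genes. All were below 0 in the full-signal pair, at −0.29, −0.20 and −0.26. Under the other scalings the pair's medians were smaller, at −0.18, −0.11 to −0.10 and −0.15 to −0.13. In the weak arrays the medians of the deposited values were 0.15, 0.01 and −0.06. Mki67, the proliferation antigen Ki-67, was at 3.53, 4.53 and 5.09 in tumor and at 4.86, 5.53 and 6.0 in adjacent arrays, lower in each tumor array than in its namesake. Mcm7, a subunit of the replication helicase, stood the other way at 5.02, 4.53 and 5.19 against 4.33, 4.05 and 4.25. Of 16 fetal and regenerative genes 11 were below 0, with a median of −0.30 over 6 arrays and −0.43 in the full-signal pair, but the median was −0.003 without floxed adjacent 3, with 8 below 0. Clu, clusterin, a marker of regenerating epithelium, was at 4.62, 5.30 and 6.55 against 6.14, 5.91 and 8.81, and Anxa10, an annexin of gastric-type epithelium, at 3.47, 4.53 and 4.53 against 4.31, 4.20 and 8.74. Cnn2, a calponin, and Anxa3, another annexin, were lower in all tumor arrays, by −1.14 ± 0.37 and −1.15 ± 0.43.

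Ribosomal protein genes were lower in the arrays labelled tumor, most evenly in the full-signal pair. There all 29 measured genes were below 0, with a median of −0.99, and 13 were lower by at least 1 log2 unit against 2.89% of all genes. The pair's median was −0.86 to −0.83 under the other scalings. Over 6 arrays 26 were below 0 with a median of −0.56, and 0 passed the test. In the weak arrays 22 were below 0 with a median of −0.46. Without floxed adjacent 3 only 11 were below 0 and the median was 0.09, and without floxed tumor 3 it was −1.26. Each of these repeats leaves full signal in 1 tissue only, so signal and tissue cannot be told apart in them. Leaving out both arrays left the values of the weak arrays given above. Rpl6, a protein of the large subunit, was at 4.60, 4.89 and 6.13 in tumor and at 5.73, 6.19 and 8.07 in adjacent arrays, a difference of −1.46 ± 0.64. Rpl4 was at 5.28, 5.54 and 7.41 against 6.29, 7.53 and 8.75, lower in each tumor array than in its namesake. Mean levels of the list were 5.65, 5.53 and 7.39 in tumor and 6.07, 6.01 and 8.28 in adjacent arrays, so levels differed more between full-signal and weak arrays than between tissues.

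Genes of ribosome assembly under Myc had a median of −0.14 over 34 genes with 22 below 0, −0.22 in the full-signal pair, −0.14 in the weak arrays and −0.075 without floxed adjacent 3. Npm1, the nucleolar chaperone nucleophosmin, was at 4.47, 3.66 and 5.24 in tumor and at 5.36, 5.65 and 7.13 in adjacent arrays without overlap, a difference of −1.59 ± 0.56. Srm, spermidine synthase, was at 4.78, 4.68 and 4.70 against 5.66, 5.42 and 5.90, also without overlap, a difference of −0.94 ± 0.34. Neither passed the adjusted test (limma adjusted p = 1 for both). Oxidative phosphorylation genes had a median of 0.36 with 23 of 37 above 0, 0.45 in the full-signal pair and 0.06 in the weak arrays. It was 0.59 without floxed adjacent 3, but −0.35 without floxed tumor 3, −0.059 without floxed adjacent 1 and −0.00102 without floxed adjacent 2.

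Stomach and Brunner gland mucous genes had their highest mean level in floxed adjacent 3, at 7.04 against 5.45 in tumor 3 and 4.26 to 4.48 in the weak arrays. Above the receptor 95th percentile lay 12 of the 16 in adjacent 3, 11 in tumor 3 and 0 to 4 in the weak arrays. Muc5ac, the mucin of the stomach surface, was at 4.37, 4.37 and 4.95 in tumor 1 to 3 and at 4.52, 4.80 and 9.91 in adjacent 1 to 3. Gkn1, gastrokine 1, was at 4.12, 4.90 and 7.73 against 5.09, 5.0 and 11.24, and Gkn2, whose promoter is shown above, at 4.20, 4.18 and 7.49 against 3.91, 3.61 and 11.85. Tff1, a trefoil peptide of stomach mucus, was at 4.48, 4.76 and 6.70 against 5.67, 5.44 and 9.67. Muc6, the mucin of stomach and Brunner glands, was at 4.66, 3.57 and 7.09 against 5.38, 5.37 and 9.39. Tumor 3 thus held Gkn1, Gkn2, Tff1 and Muc6 at levels between those of floxed adjacent 3 and of the weak arrays. Its Muc5ac value lay above its receptor 95th percentile of 4.21, while those of the weak arrays lay below theirs (5.10 to 5.33).

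As a list, 8 of 16 gastric genes were lower and 1 higher by at least 1 log2 unit in the full-signal pair, against 2.89% and 4.3% of all genes, with a median of −0.78. The pair's median was −0.564 to −0.555 under the other scalings. Over 6 arrays the median was −0.60 with 12 below 0. In the weak arrays it was −0.05 with 8 below 0, and without floxed adjacent 3 it was −0.01 with 8 below 0. Muc5b, another gel-forming mucin, was the only member lower in all tumor arrays, by −0.47 ± 0.34. Other genes on the lower side in the pair and in the weak arrays were Akr1b8, an aldo-keto reductase (7.02 in adjacent 3 and 4.04 in tumor 3), Fxyd3, a regulator of the sodium pump (8.10 and 5.67), Slc9a4, the gastric sodium and proton exchanger (6.30 and 3.83), and Tesc, tescalcin (7.18 and 4.96). The claudin of stomach epithelium, Cldn18, was at 8.30 in adjacent 3 and between 4.89 and 5.41 in the other 5 arrays.

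Pancreatic enzyme genes were present in both arrays of the full-signal pair. The mean level of 20 exocrine pancreas genes was 8.18 in tumor 3 and 7.77 in adjacent 3, 5.80 in adjacent 2 and 4.61 to 4.85 in the other 3 arrays. The median difference was 0.26 in the pair, −0.28 in the weak arrays and −0.09 over all 6. In the pair it was 0.05 to 0.12 under the other scalings. Without floxed adjacent 3 the median over the rest was 0.78, and without floxed tumor 3 it was −1.22. Spink1, a trypsin inhibitor also made by gut epithelium, was at 6.17, 6.96 and 7.43 in tumor and at 5.78, 5.60 and 6.05 in adjacent arrays without overlap. Sycn, Cpa1 and Rnase1, secreted by acinar cells and named after their values were seen, were within 0.25 log2 units of each other in the pair. The part of gastric, duodenal or pancreatic tissue in the other differences was not tested.

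**Figure D3:**
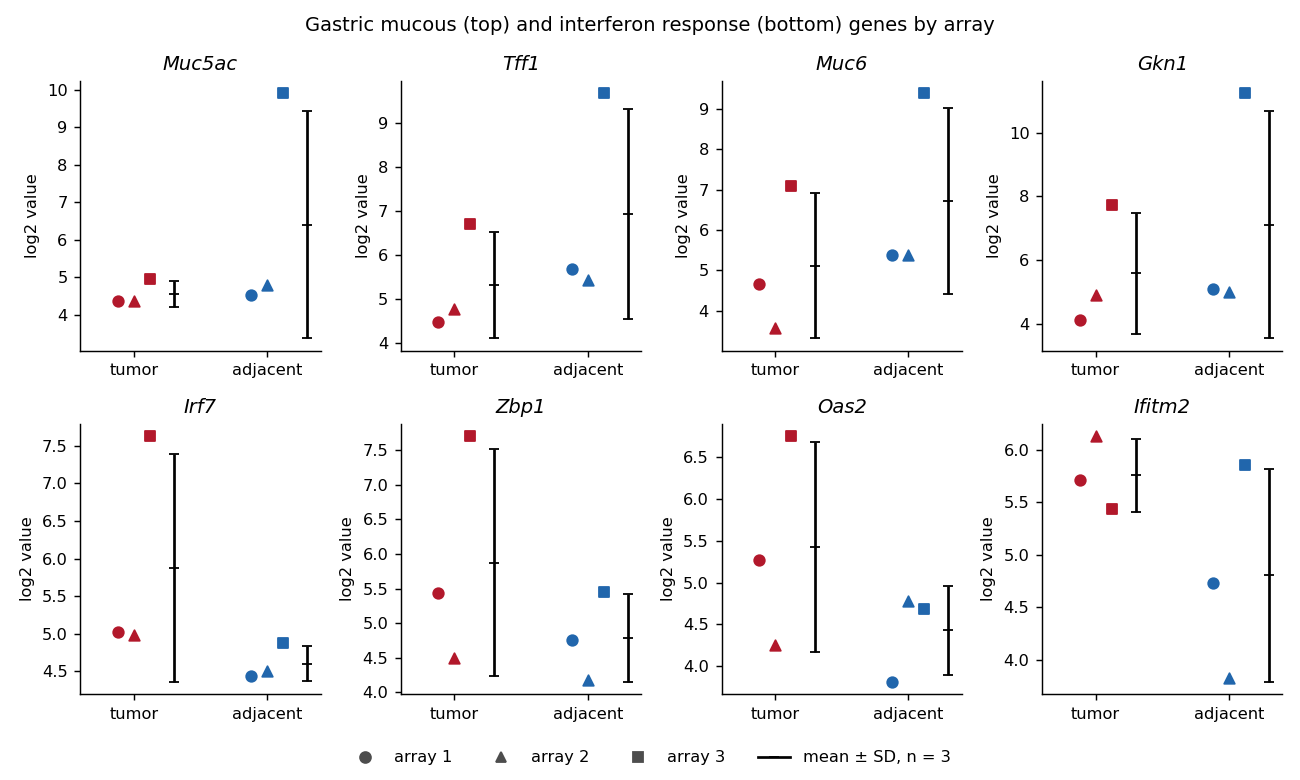
Log2 values (y axes) of 4 gastric mucous genes and 4 interferon response genes in the floxed tumor and floxed adjacent arrays; symbols give the array number and the bars mean ± SD, n = 3. Adjacent 3 (blue square) stands alone at 9.91 for Muc5ac, and tumor 3 (red square) at 7.62 for Irf7.

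Interferon response genes were higher in tumor 3 than in adjacent 3, with a median near 0 in the weak arrays. Of 21 genes 20 were above 0 in the pair with a median of 1.17, and 13 were higher by at least 1 log2 unit against 4.3% of all genes. The pair's median was 0.85 to 0.90 under the other scalings. In the weak arrays 11 were above 0 with a median of 0.03. Over 6 arrays 16 were above 0 with a median of 0.43, which was 0.54 without floxed adjacent 3 and 0.07 without floxed tumor 3. Irf7, the master regulator of type I interferon genes, was at 5.02, 4.98 and 7.62 in tumor and at 4.44, 4.50 and 4.87 in adjacent arrays without overlap, a difference of 1.27 ± 0.66. In every weak array Irf7 lay below the receptor 95th percentile (percentiles of 5.10 to 5.33). Zbp1, a sensor of Z-form nucleic acids, was at 5.43, 4.50 and 7.70 against 4.75, 4.17 and 5.45. Oas2, an antiviral oligoadenylate synthetase, was at 5.27, 4.25 and 6.74 against 3.82, 4.78 and 4.69. Ifit3, with its response elements printed above, was at 6.02, 5.44 and 8.43 against 5.63, 5.92 and 5.42. In the last 3 genes tumor 3 was the highest array and the weak arrays of the tissues overlapped.

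Markers of immune cells were set beside the interferon genes. The list of T cell and intraepithelial lymphocyte genes had a median of 0.48 in the pair with 12 of 17 above 0 and 0 past 1 log2 unit, and 0.00 in the weak arrays. Mean levels of that list were 4.22, 4.45 and 4.34 in tumor and 4.49, 4.41 and 4.05 in adjacent arrays. The 9 MHC class II genes had a median of 0.21 in the pair with 6 above 0, and 0.17 in the weak arrays. Among them Cd74, the invariant chain, was at 5.68, 5.04 and 6.75 against 5.33, 5.0 and 4.31, and H2-Ab1, a class II beta chain, at 6.05, 4.94 and 7.18 against 4.96, 5.16 and 5.10. The 15 B and plasma cell genes had a median of 0.00 in the pair with 8 above 0, and 0.18 in the weak arrays. Among them Jchain, the joining chain of secreted antibodies, was at 7.04, 5.04 and 8.77 against 6.10, 5.35 and 5.98. The part of immune cells in the interferon difference was not tested.

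**Figure D4:**
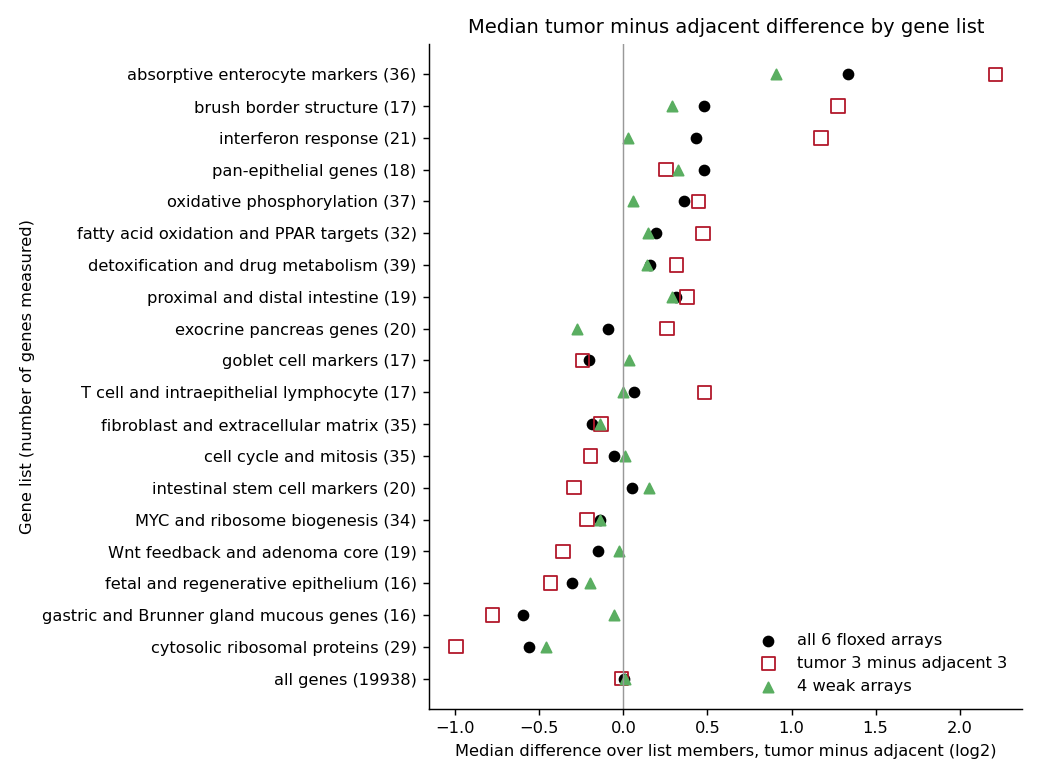
Median difference, tumor minus adjacent in log2 units (x axis), over the measured members of 19 gene lists and over all genes (y axis), for all 6 floxed arrays, for tumor 3 minus adjacent 3 and for the 4 weak arrays. Enterocyte genes lie to the right (1.34, 2.21 and 0.91) and ribosomal protein genes to the left (−0.56, −0.99 and −0.46) in all 3 views, whereas interferon and gastric genes lie near 0 in the weak arrays (0.03 and −0.05).

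Of the genes with the smallest unadjusted p, Dnajb9, a chaperone of the endoplasmic reticulum induced by the unfolded protein response, headed the genes higher in tumor. It was at 5.91, 5.07 and 6.09 in tumor and at 4.09, 3.99 and 4.14 in adjacent arrays, a difference of 1.62 ± 0.39 (SE; limma adjusted p = 1). The 21 genes of its list had a median of 0.03, with 11 above 0. That median was 0.50 without floxed adjacent 3 and −0.48 without floxed tumor 3. Snf8, a subunit of the endosomal sorting complex, was at 5.38, 5.44 and 5.51 against 3.34, 2.85 and 4.60, and Rb1, the retinoblastoma tumor suppressor, at 6.08, 5.76 and 6.91 against 4.32, 4.10 and 5.39. Ddx50, a nucleolar RNA helicase, and Hsd3b3, a steroid dehydrogenase, differed by 1.45 ± 0.43 and 1.23 ± 0.36. Hsd3b3 lay below the receptor level in every weak array.

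On the lower side the smallest unadjusted p belonged to Blmh, bleomycin hydrolase, at 2.97, 3.78 and 3.86 in tumor and 5.08, 4.75 and 4.69 in adjacent arrays, a difference of −1.30 ± 0.39. Cblif, the gastric intrinsic factor that carries vitamin B12, was at 3.59, 3.04 and 3.79 against 5.29, 4.71 and 4.42. Cxcl17, a mucosal chemokine, was at 4.25, 4.12 and 3.95 against 4.97, 5.26 and 6.06. Prelp, a matrix proteoglycan, Elp3, a subunit of Elongator, Josd1, a deubiquitinase, Kbtbd11, a kelch protein, Trim71, a ubiquitin ligase of early development, and Pllp, a membrane protein of epithelia and myelin, differed by −1.41 to −1.17 without overlap. For every gene of this paragraph tumor 1 and tumor 2 lay below the 95th percentile of their receptors (5.10 and 5.33). In adjacent 1 and adjacent 2 (5.15 and 5.20) Blmh and Josd1 also lay below it. Kbtbd11 and Elp3 lay above it in both, and the other genes were divided between these arrays.

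The full-signal pair and the weak arrays had the same sign in 10245 of 19938 genes. Both weak tumor arrays lay above both weak adjacent arrays in 3391 genes (17%) and below them in 3154 (15.8%), whatever the pair showed. Of the former, tumor 3 lay above adjacent 3 in 1743 (8.74% of all genes). Of the latter, tumor 3 lay below adjacent 3 in 1695 (8.5%). Across all genes the differences of the pair and of the weak arrays, which share no array, correlated at r = 0.096, and across the 36 enterocyte genes at 0.34; genes are not independent replicates. Among genes apart in this way, Cyp3a13 led the higher side with 3.51 in the pair and 1.53 in the weak arrays. Cdhr2 (3.11 and 1.34), Mttp (2.85 and 1.12), Mme (2.68 and 1.37), Clrn3, a clarin of enterocytes (2.65 and 1.26), and Prap1, a secreted lipid-binding protein of gut epithelium (2.58 and 1.93), followed on that side. On the lower side Muc5ac (−4.96 and −0.29), Gkn1 (−3.51 and −0.54), Akr1b8 (−2.98 and −0.92) and Far1, a fatty acyl reductase (−2.82 and −0.71), led. Each of these lower genes lay below the receptor 95th percentile in every weak array (percentiles of 5.10 to 5.33). Their weak-array differences are therefore between values at background. After quantile scaling the pair's difference was smaller, at 2.40 for Cyp3a13 and 1.86 for Irf7, in the same direction.

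**Figure D5:**
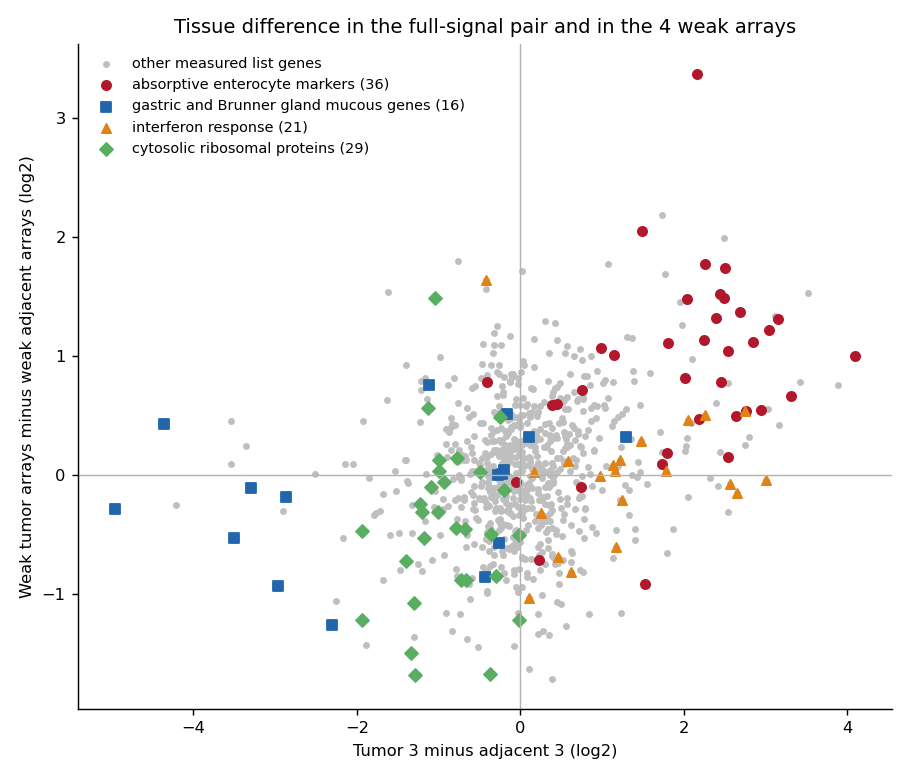
Difference of tumor 3 minus adjacent 3 (x axis, log2) against that of weak tumor minus weak adjacent arrays (y axis, log2) for each measured list gene, with 4 lists coloured. Enterocyte genes (36) lie mostly at upper right, interferon genes (21) to the right near 0 on the y axis and gastric genes (16) to the left.

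The tissue difference of the floxed arrays was compared with that of the KO arrays, which share no array with them. No gene passed the test of whether its tissue difference differed between the genotypes (limma interaction over 12 arrays, 0 of 19938 genes, 0%). There were 420 genes at an unadjusted p under 0.05, and the smallest adjusted p was 1. The enterocyte list had a median of 1.34 in floxed and 0.95 in KO arrays, with 33 and 34 of 36 genes above 0. The Wnt core had medians of −0.15 and −0.80, with 8 and 0 of 19 above 0. Ribosomal protein genes had −0.56 and −0.80, interferon genes 0.43 and 0.10, and gastric genes −0.60 and −0.09. Without KO adjacent 1, the array titled floxed, the KO medians of these 5 lists were 1.18, −1.27, −0.86, 0.19 and −0.13. Without floxed adjacent 3 the floxed medians were 1.44, −0.12, 0.09, 0.54 and −0.01.

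Dnajb9 had the smallest unadjusted p of the interaction, with a tissue difference of 1.62 in floxed and 0.02 in KO arrays, an interaction of 1.60 ± 0.39 (SE; limma adjusted p = 1). Mcm7 (1.37 ± 0.35), Ifitm2, an interferon-induced membrane protein (2.49 ± 0.71), Diras2, a small GTPase (1.32 ± 0.38), and Snf8 (1.74 ± 0.50) were next among genes with the larger difference in floxed arrays. Cyp2c65, a cytochrome P450 of gut (−2.61 ± 0.72), Ces2b, a carboxylesterase (−1.71 ± 0.48), Trav7d-4, a T cell receptor segment (−1.60 ± 0.42), Cxcl17 (−1.36 ± 0.38), and Slc17a1, a phosphate carrier (−1.13 ± 0.31), stood on the other side. Trav7d-4 and Slc17a1 lay below the receptor level in every floxed array, and Mcm7, Diras2 and Cyp2c65 in every weak array. None passed the adjusted test, including with genotype read by title or without both arrays of conflicting labels.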

How the data were processed

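RNA of laser-cut epithelium was labelled with a GeneChip WT Pico kit and biotin for expression arrays, per the labels' protocols. The deposited table holds log2 values per probe set and array; the submitters' processing notes name Partek and RMA, with no version, and filters are not given in the sources used here. Of 35556 probe sets, 21789 had 1 gene symbol in the platform annotation, 1621 several and 12146 none here; 19938 genes remained, and where a gene had more than 1 probe set (999 genes) the one brightest on average in the 6 floxed arrays was used.

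The 6 floxed arrays were fitted with limma 3.58.1 in R 4.3.3 (lmFit and eBayes, two-sided, Benjamini-Hochberg over 19938 genes, calls at an adjusted p under 0.05); all 12 arrays were fitted in 4 groups for the interaction. The steps were tested on simulated data. With 3 arrays a tissue, precision is limited by their number.

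Same-numbered tumor and adjacent arrays, by the number in the description, deviated together at r = 0.23, 0.37 and 0.68 across genes. By the rule that every pair exceed 0.1 the number was taken to pair arrays, so the pairing rests on these same data. Tumor 1 also correlated at 0.23 with adjacent 2, tumor 2 at 0.29 with adjacent 1, and pair 3 is the full-signal pair.

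The arrays compared, the 40 gene lists (829 of 908 genes measured) and the naming rule were chosen with earlier results of these data known. Named genes were the Wnt core list, Apc, Ppard and epithelial markers, up to 4 genes of smallest unadjusted p in each described list, 10 per direction of smallest unadjusted p, 10 per direction with the largest gap between tumor 3 and adjacent 3 among genes whose weak arrays lay apart in the same direction, and 5 per direction of the interaction. Genes with only a predicted name, small RNAs and smell receptors entered the counts but were not named; other names were chosen after their values were seen. Alternatives were other scaling, leaving out dim genes, using every probe set, trend and robust variance, array weights, other thresholds, each array left out, blocks for replicate number and signal, and both readings of the conflicting labels.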

Additional observations from a re-analysis of the deposited data

How the results depend on the processing

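The count of genes separating the tissues was 0 in the main setting, 290 at an unadjusted p under 0.05 and 3 with the replicate block; it was 0 under quantile scaling, scaling to 1 SD, without the dimmest 30% of genes, with all probe sets, with trend and robust variance, with array weights, at an adjusted p under 0.1, with signal as a block (smallest adjusted p 0.396), in the weak arrays alone and in the fit of 12 arrays. Leaving out each array in turn gave 0 to 0. The interaction count was 0 under every alternative run, the replicate block included. Array signal limits these data: the weak arrays leave most genes within the range of the receptor background. Leaving out 1 array of the full-signal pair also unbalances signal between the tissues. Several list medians changed sign when 1 array was left out: ribosomal protein (0.09), goblet (0.47), pancreatic (0.78), Paneth (0.022) and cell cycle genes (0.01) without floxed adjacent 3; pan-epithelial (−0.21), oxidative phosphorylation (−0.35), PPAR target (−0.15), detoxification (−0.003) and unfolded protein response genes (−0.48) without floxed tumor 3. Leaving out another array also turned medians, among them those of goblet, Paneth, cell cycle, pancreatic, oxidative phosphorylation, unfolded protein response and stem cell genes. The enteroendocrine median turned without floxed tumor 2 (−0.074) or floxed adjacent 2 (−0.023), and the tuft cell median without floxed tumor 2 (−0.045). The enterocyte median ranged from 0.73 to 1.87 over its 17 alternatives. Scaling made the pair's difference smaller than its reported value by more than the spread in 6 named genes under quantile scaling: Cyp3a13 (2.40), Slc26a3 (2.07), Slc28a2 (2.01), Irf7 (1.86), Mme (1.83) and Clrn3 (1.86). List medians of the pair shrank too, among them enterocyte (1.575 to 1.593), interferon (0.85 to 0.90) and oxidative phosphorylation genes (0.17 to 0.30).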
